A study of Mus musculus with 4 samples.

Results

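The liver that had received both DEN and cholic acid was compared with the liver that had received neither, across all named genes of the array. DEN (diethylnitrosamine) is a liver carcinogen and cholic acid is a primary bile acid that was mixed into the diet. The members were every gene with a probe set assigned to 1 symbol, and where a symbol had several probe sets the brightest on average stood for it. This gave 18194 genes, of which 11664 were called expressed because their mean over the 4 arrays was at or above 4.851, the median of all values on the log2 scale. The 4 mouse liver samples came from animals aged 10 months. One group was fed control diet, another a diet with 0.2% cholic acid, another received DEN and then control diet, and the last received DEN and then the 0.2% cholic acid diet. They are called the untreated, cholic acid, DEN and combined pools below, and all levels are log2 values given in that order. Each pool held livers of 3 to 5 mice and was hybridized to 1 array. The strain, the sex, the DEN dose and the share of tumour tissue in the pooled livers are not stated in the labels used here.

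DEN is converted in hepatocytes by cytochromes P450 to a DNA-alkylating product, and rodents given it develop liver tumours months later. Cholic acid made by hepatocytes returns from the gut to the liver, where it binds the nuclear receptor FXR (Nr1h4), and FXR target genes such as Nr0b2 (SHP) lower the transcription of the bile acid enzymes Cyp7a1 and Cyp8b1. Dietary cholic acid also raises cholesterol uptake from the gut, and cholesterol holds back the SREBP2 factor that drives the sterol synthesis genes.

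With 1 array per group there is no replicate error, so none of the differences below was tested and none has an interval. The median level differed little between arrays, from 4.843 to 4.865. The 18 hybridization control probe sets, which measure array to array error alone, differed by at most 0.18 between the combined and the untreated array, and the 27 poly-A control probe sets by -0.55 to 0.33. Hepatocyte markers differed little between the 2 pools: none of the 13 expressed members of that list was 2-fold apart, and their median difference was 0.00, or -0.12 with each array centred on its median. Albumin (Alb) stood at 14.75, 14.74, 14.79 and 14.82. In bulk liver a difference in a cell type marker may come from more cells of that type or from more RNA in each, which cannot be told apart.

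A gene is called higher or lower below when the 2 arrays were at least 2-fold apart, which is a log2 difference of 1. In the combined pool 697 expressed genes were at least 2-fold higher than in the untreated pool (5.98% of the 11664) and 256 were at least 2-fold lower (2.19%). Every list count below is to be read beside these shares. The median difference over all expressed genes was 0.01. The higher genes also reached further: 74 were at least 8-fold higher, against 4 at least 8-fold lower. Centring each array on the median of its expressed genes shifts all differences by -0.12 and changes these counts to 595 and 346, so that 63.2% of the genes past 2-fold were higher in place of 73.1%. The genes next to the threshold were Sox17 and Sdcbp at 1.001 inside it and Creld2 and Tlr3 at 0.999 outside it, and on the lower side Ptprd and Ldhd at -1.0 inside it and Aass at -0.997 and Fbxo31 at -0.992 outside it. The counts of 697 and 256 use the levels as deposited, and were 656 and 252 with low levels raised to 4.851. For the fold of a single gene, a level under 4.851 was raised to that limit, and the fold is then given as a lower bound.

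**Figure D1:**
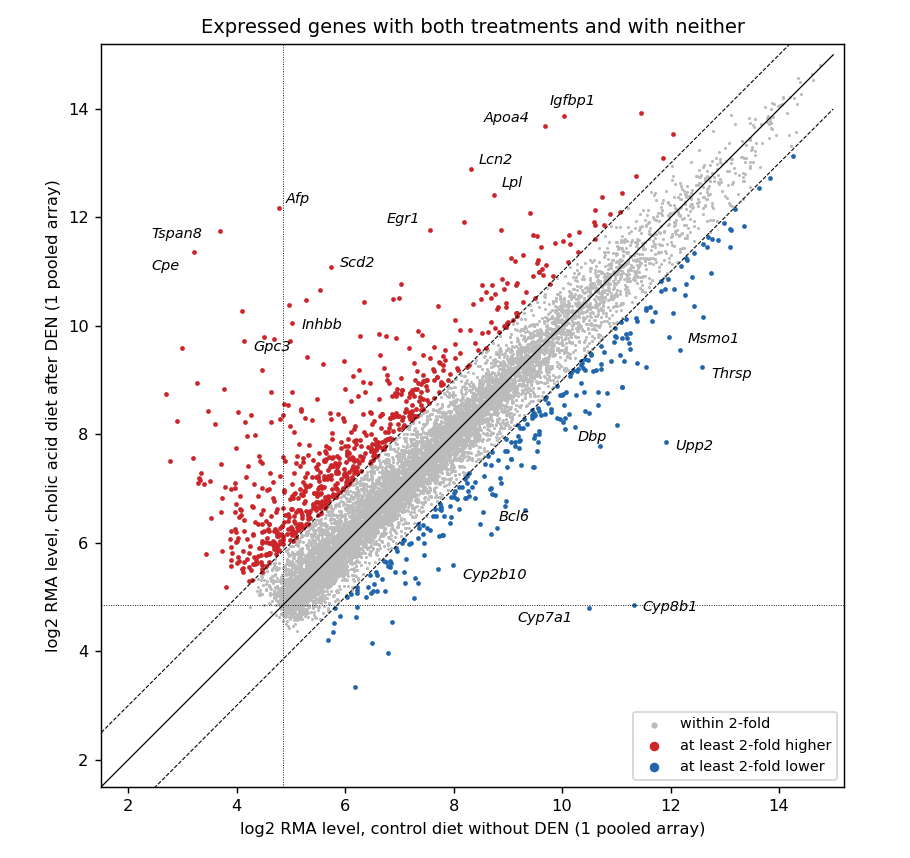
Log2 level of each of the 11664 expressed genes in the combined pool (vertical axis) against the untreated pool (horizontal axis), 1 array each. Dashed lines mark 2-fold, dotted lines the background limit of 4.851. Of the coloured points 697 lie above and 256 below the 2-fold lines, and Cyp8b1 and Cyp7a1 lie farthest below.

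The 2 largest decreases among the expressed genes were in bile acid synthesis enzymes. Cyp8b1, the sterol 12-alpha-hydroxylase needed to make cholic acid, stood at 11.32, 4.55, 10.07 and 4.85, and was 88.3-fold lower in the combined than in the untreated pool. Its level was near the background limit in both pools fed cholic acid and high in both pools fed control diet. Cyp7a1, the rate-limiting enzyme of the classical pathway, stood at 10.50, 7.59, 9.58 and 4.80, at least 50.2-fold lower in the combined pool. Here the combined pool was by far the lowest of the 4, and the gene's second probe set gave a log2 difference of -5.12. Across the list, 6 of 15 expressed members were lower, 1 was higher, and the median difference was -0.795.

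Among the other members, Cyp7b1, which acts in the alternative pathway, had levels of 13.10, 12.66, 12.05 and 11.46. Akr1d1, which reduces the steroid ring, had 11.10, 10.81, 9.89 and 9.77, and Cyp27a1, the sterol 27-hydroxylase, had 11.55, 11.23, 10.64 and 10.30. These 3 enzymes descended in the order untreated, cholic acid, DEN, combined. Cyp39a1, a 24-hydroxycholesterol hydroxylase, was the member that was higher, at 7.17, 7.49, 8.34 and 8.42. The combined pool had the lowest of the 4 levels in 10 of the 15 members, where 28.4% of all expressed genes had their lowest level in that pool.

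Bile acid sensors differed less than the enzymes. Nr1h4, the gene of FXR, had levels of 9.74, 9.49, 8.96 and 8.58 and was 2.23-fold lower in the combined pool. Nr0b2, its target, had 8.22, 9.09, 8.53 and 8.86, a log2 difference of 0.65 that did not reach 2-fold. Nr1i3, the xenobiotic receptor CAR, had 8.25, 8.44, 7.24 and 7.23 and was 2.03-fold lower. In all, 2 of 9 expressed sensors were lower and none was higher, with a median difference of -0.28.

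Of 17 expressed bile and sterol transport genes 5 were lower, 5 were higher and 7 lay within 2-fold, with a median difference of 0.30. Those past 2-fold split by direction of transport. The 5 lower members were all uptake carriers of the blood side: Slco1a4, Slco1a1, Slc10a1, Slco2b1 and Slco1b2. Slc10a1, the sodium-dependent bile acid carrier NTCP, had levels of 12.40, 12.02, 11.42 and 10.90, and Slco1a4 had 9.49, 9.17, 8.46 and 7.39. Both had their lowest level in the combined pool. The 5 higher members were exporters: Abcb1a, Abcc4, Slc51b, Abcg5 and Abcg1. Slc51b, a subunit of the basolateral bile acid exporter, had 5.52, 6.22, 6.20 and 7.14 and was 3.07-fold higher. Slc51a, also on the list, was under the background limit in every pool, as was Abcb1b. Abcb1a, a multidrug exporter, had 4.85, 6.68, 6.99 and 7.58 and was at least 6.61-fold higher. Abcb11, the canalicular bile salt export pump, was nearly level at 11.14, 11.39, 10.85 and 11.12, and its log2 difference of -0.02 takes the other sign under quantile normalization or loess centring.

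Of 20 expressed cholesterol synthesis and uptake genes 10 were lower in the combined pool, 10 lay within 2-fold and none was higher, with a median difference of -0.98. The cholic acid pool against the untreated pool gave a list median of -1.95, and the combined pool against the DEN pool gave -1.18; the first shares the untreated array with the combined difference and the second shares the combined array. Msmo1, the sterol C4-methyl oxidase, had levels of 12.18, 8.51, 11.59 and 9.56. Idi1, the isopentenyl diphosphate isomerase, had 11.97, 8.79, 11.75 and 9.80, and Fdps, the farnesyl diphosphate synthase, had 11.14, 7.78, 11.11 and 9.35. In each of these genes the combined level lay between the cholic acid level and both control diet levels.

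Squalene epoxidase (Sqle) showed the widest gap of the list between the pools fed cholic acid. Its levels were 9.87, 4.69, 10.24 and 9.06, so it was under the background limit with cholic acid alone and a log2 difference of 0.81 below the untreated level in the combined pool. Tm7sf2, a sterol reductase, went the other way at 10.67, 9.09, 10.06 and 8.79, with its lowest level in the combined pool. The combined pool was the lowest of the 4 in 3 of the 20 members, against 28.4% of all expressed genes. Probe sets disagreed for some members: the second Fdps probe set gave a difference of 0.03, while the second Idi1 probe set gave -2.46.

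**Figure D2:**
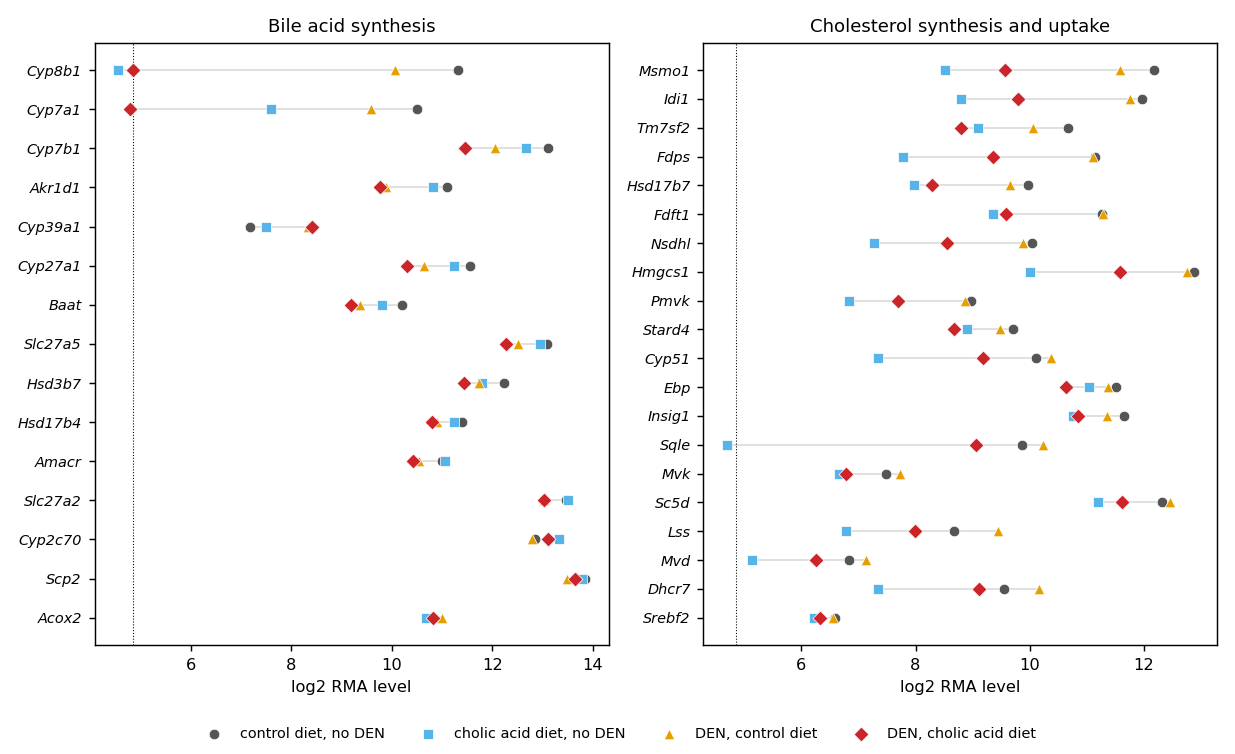
Log2 levels (horizontal axis) of the 15 expressed bile acid synthesis genes and the 20 expressed cholesterol synthesis and uptake genes, 1 symbol for each of the 4 pools, with genes ordered by the size of the combined minus untreated difference. The dotted line is the background limit. The red diamonds of the combined pool lie leftmost in 10 of the 15 bile acid genes but between the cholic acid pool and the control diet pools in most cholesterol genes.

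SREBP2 acts on sterol genes through a sterol response element. Of the 25 listed cholesterol genes, 17 had a promoter in the RefSeq promoter table (build GRCm38.p6, 250 bases before to 50 after the start), and the motif TCACNCCAC, searched on both strands, was in 1 of them (5.88%), against 1.44% of 27025 genes with a promoter there. That gene was Hmgcs1, the cytosolic HMG-CoA synthase, whose levels were 12.88, 10.00, 12.76 and 11.58. The stretch around the match, at chr13:119690174-119690262 on the plus strand, is shown with the match in capitals because this is the only member in which it was found.
Hmgcs1: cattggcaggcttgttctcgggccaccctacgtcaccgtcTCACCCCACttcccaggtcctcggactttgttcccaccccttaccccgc

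Lipid genes outside sterol synthesis were mixed. Of 19 fatty acid synthesis genes 2 were higher and 4 lower, with a median difference of -0.09. Scd2, a stearoyl-CoA desaturase of fetal liver and brain, had levels of 5.73, 5.64, 11.37 and 11.09 and was 41.1-fold higher, while Scd1, the main desaturase of adult liver, was level at 14.08, 14.11, 14.15 and 14.23. The other Scd2 probe sets gave differences of 0.57 and 2.22. Thrsp, a regulator of lipogenesis, had 12.58, 12.61, 10.70 and 9.24 and was 10.1-fold lower, and Acss2, the cytosolic acetyl-CoA synthetase, had 11.39, 9.61, 10.71 and 9.32. Fatty acid synthase (Fasn) was within 2-fold at 9.99, 9.69, 10.25 and 9.65.

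Lipid storage and handling had 2 higher and 4 lower members of 19, with a median of -0.485. Lipoprotein lipase (Lpl), which adult hepatocytes normally express little, had levels of 8.75, 9.21, 11.90 and 12.42 and was 12.8-fold higher in the combined pool. Fabp4, a fatty acid binding protein of adipocytes and macrophages, had 7.45, 7.62, 8.83 and 8.99. Lpin1, a phosphatidate phosphatase and coactivator, had 11.10, 11.71, 9.95 and 8.87, and Fitm1, a lipid droplet protein, had 9.54, 8.61, 8.61 and 7.70. The combined pool was the lowest of the 4 in 11 of the 19 members, against 28.4% of all expressed genes. Fatty acid oxidation genes had 1 lower and no higher member of 18 and a median of -0.35, where 2.19% of all expressed genes were lower. The lower gene was Ppara, the receptor that drives this program, at 10.07, 10.00, 9.22 and 8.79.

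Oncofetal genes and tumour markers are genes that fetal hepatocytes or liver tumours express and adult liver mostly does not. Of 26 expressed members 19 were higher and none lower, with a median difference of 3.41, or 2.32 with the mean over probe sets. Over all 28 measured members the median was 3.06. The list was chosen with earlier results of these data known, and it holds genes that were among the 20 largest increases. Its count and median therefore describe the listed genes and do not test the group. Alpha-fetoprotein (Afp) had levels of 4.77, 4.10, 12.65 and 12.17, at least 159-fold higher in the combined than in the untreated pool. Its 4 other probe sets gave differences of 0.15 to 6.10. Tspan8, a tetraspanin of tumour cell surfaces, had 3.69, 3.92, 11.38 and 11.75, and Gpc3, the fetal proteoglycan glypican-3, had 4.14, 4.41, 9.80 and 9.73. All 3 were under the background limit in both pools without DEN and high in both pools with it. They thus counted as expressed through their levels with DEN, as did Cpe and Bex1 below. The 4 other Tspan8 probe sets gave differences of 0.79 to 5.11, and the mean over probe sets gave 4.37 in place of 8.06.

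Carboxypeptidase E (Cpe), a prohormone-processing enzyme, had levels of 3.22, 3.27, 11.06 and 11.36, and its second probe set gave a difference of -0.28. Bex1, an X-linked adaptor protein, had 2.99, 2.80, 10.37 and 9.60, and Ly6d had 5.28, 5.45, 10.56 and 10.48. Prom1, a stem cell surface protein also known as CD133, had 4.50, 5.04, 9.71 and 9.79. Tff3, a trefoil peptide, was lower in the combined than in the DEN pool at 6.34, 6.45, 11.70 and 10.44. Lcn2, an iron-siderophore binding protein, was highest in the combined pool at 8.32, 7.85, 12.06 and 12.89. Not every oncofetal gene took part: Igf2 had 4.93, 4.97, 5.37 and 5.21, and Dlk1 was under the limit in every pool.

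Fst and Inhbb, which belong to none of the lists, were among the 20 largest increases. Follistatin (Fst), the activin-binding inhibitor, had levels of 4.97, 4.84, 10.07 and 10.39 and was 43.0-fold higher. Inhbb, which encodes an activin subunit, had 5.02, 5.36, 8.92 and 10.05 and was 32.7-fold higher. Fst was alike in both DEN pools, while Inhbb was a further 1.13 higher in the combined one. The second probe set of Fst gave a difference of 4.08, whereas that of Inhbb gave 0.25. Igfbp1, an IGF-binding protein of hepatocytes, had 10.03, 9.80, 13.88 and 13.88. The enzyme Akr1c18, which reduces progesterone, had 5.53, 5.59, 10.92 and 10.66.

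Markers of bile duct cells share Prom1, Sox9 and Epcam with this list. Of the 5 expressed cholangiocyte markers 4 were higher, with a median difference of 1.89, but over all 10 measured members the median was 0.46. Prom1, Sox9 and Cldn7 were under the background limit in the untreated pool and counted as expressed through their levels in the other pools. Krt23 had levels of 5.09, 6.64, 6.78 and 7.48, and Sox9, the ductal and progenitor factor, had 4.74, 5.11, 6.05 and 6.63. The other Sox9 probe sets gave differences of 0.37 and 0.77, both within 2-fold, and the mean over probe sets gave 1.01 in place of 1.89. The defining ductal genes Krt7, Cftr, Muc1 and Cldn4 were under the background limit in all 4 pools, and Krt19 had 4.21, 4.53, 4.94 and 4.83. The summed linear signal of the 10 members was 232, 326, 1207 and 1380. Of 10 expressed gallbladder and intestinal genes 4 were higher: Cdh17, Krt20, Vil1 and Anxa13. All 4 were under the limit in the untreated pool and counted as expressed through their levels with DEN, and the list median of 0.47 was 0.04 over all 14 measured members. Krt20, a keratin of intestinal epithelium, had 3.29, 2.87, 6.31 and 7.11, while Cdx1, Cdx2, Cldn18 and Guca2a were under the limit in every pool; the summed signal of all 14 was 1609, 2123, 2180 and 2907. The part of these cell types in the oncofetal values was not tested.

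Most mitosis genes were higher, while replication genes were mixed. Of 20 expressed mitosis genes 17 were higher and none lower, with a median difference of 1.81. It was 1.35 with low levels raised to the limit and 1.37 with the mean over probe sets. Over all 27 measured members the median was 1.51. The expressed members had a median level of 4.43 in the untreated pool, under the limit, and 6.20 in the combined pool. Members such as Mki67, under the limit in the untreated pool, counted as expressed through their levels in the other pools. Mki67, the proliferation antigen Ki-67, had levels of 3.90, 5.32, 7.15 and 6.99 and was at least 4.40-fold higher. Ube2c, a ubiquitin-conjugating enzyme of the anaphase-promoting complex, had 4.32, 5.85, 7.43 and 7.09, and Top2a, topoisomerase II alpha, had 4.06, 5.42, 6.79 and 6.62. The untreated pool was lowest, the cholic acid pool intermediate and both DEN pools highest in each of these genes. The other Top2a probe sets gave -0.40 and 0.01. Combined was the highest of the 4 pools in 5 of the 20 members, near the 24.9% of all expressed genes that were highest there.

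Of 21 expressed replication genes 3 were higher and 2 lower, with a median of 0.27. Mcm6, a subunit of the replicative helicase, had levels of 5.22, 6.49, 6.77 and 7.49, and Mcm5 had 5.69, 6.11, 6.80 and 6.82. Mcm10, a replication initiation factor, had 9.91, 10.13, 8.81 and 8.31 and thymidine kinase (Tk1) had 7.44, 7.46, 6.68 and 6.33. The other probe sets gave differences of -0.02 and 0.82 for Mcm5 and of -0.32 and 0.05 for Mcm10, so with the mean over probe sets neither reached 2-fold (0.64 and -0.63). Pcna, the polymerase clamp, was within 2-fold at 9.29, 9.59, 9.52 and 9.59.

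Promoters of genes expressed in G2 and M phase commonly carry CCAAT boxes, bound by NF-Y, and the cell cycle homology region TTTGAA. Of 28 listed mitosis genes 22 had a promoter in the RefSeq table; 19 of them (86.4%) held CCAAT on either strand, against 41.1% of all 27025 genes, and 17 (77.3%) held TTTGAA on either strand, against 20.2%. The 150 bases before the start are shown, 5′ to 3′ on the gene's strand, for the 5 genes with the largest differences, so that the spacing of the motifs can be seen. Capitals mark every CCAAT or TTTGAA or its reverse complement. Mki67 (chr7:135716380-135716529, minus strand) has 1 CCAAT and 2 TTTGAA, Ube2c (chr2:164769779-164769928, plus strand) has 2 and 1, and Top2a (chr11:99024190-99024339, minus strand) has 4 and 1. Ckap2 (chr8:22185820-22185969, minus strand) has 1 and 1, and Ccnb2 (chr9:70421555-70421704, minus strand) has 3 CCAAT and no TTTGAA in this window.
Mki67: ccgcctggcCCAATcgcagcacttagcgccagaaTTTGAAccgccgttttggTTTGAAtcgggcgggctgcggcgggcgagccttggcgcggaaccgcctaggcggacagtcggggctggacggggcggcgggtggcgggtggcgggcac
Ube2c: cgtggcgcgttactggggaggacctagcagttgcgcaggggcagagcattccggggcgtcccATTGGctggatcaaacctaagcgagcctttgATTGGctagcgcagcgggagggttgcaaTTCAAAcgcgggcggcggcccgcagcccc
Top2a: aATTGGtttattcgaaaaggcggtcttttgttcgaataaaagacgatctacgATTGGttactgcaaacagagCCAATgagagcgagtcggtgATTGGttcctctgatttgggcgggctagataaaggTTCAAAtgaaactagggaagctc
Ckap2: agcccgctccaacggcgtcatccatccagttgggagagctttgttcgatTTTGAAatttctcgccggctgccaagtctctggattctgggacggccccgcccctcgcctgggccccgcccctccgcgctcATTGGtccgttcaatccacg
Ccnb2: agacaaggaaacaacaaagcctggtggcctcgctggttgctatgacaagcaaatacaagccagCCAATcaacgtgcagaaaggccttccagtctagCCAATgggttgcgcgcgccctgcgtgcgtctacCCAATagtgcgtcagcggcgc

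In the G1 list 4 of 17 expressed members were higher and none lower, with a median of 0.29, and in the p53 target list 7 of 20 were higher and none lower, with a median of 0.44. Cdkn2b, the CDK4 and CDK6 inhibitor p15, had levels of 3.76, 4.17, 8.72 and 8.84 and was at least 15.8-fold higher. Cdkn1a, the p53 target p21, had 5.72, 6.24, 8.26 and 8.39 and was 6.36-fold higher. Both were nearly alike in the 2 pools with DEN. Cyclin D1 (Ccnd1) had 7.20, 8.38, 8.91 and 8.77, and Myc was within 2-fold at 6.68, 6.98, 7.29 and 6.92. Cdkn2a, a CDK4 and CDK6 inhibitor of the same family as p15, was under the background limit in every pool. Btg2, an antiproliferative p53 target, had 7.0, 7.67, 10.04 and 10.52, and Psrc1 had 3.96, 4.00, 7.76 and 7.10. Psrc1 was under the limit in both pools without DEN, and its 2 other probe sets gave differences of 0.44 and 0.51.

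Of 24 expressed targets of NRF2, the factor that answers oxidative and electrophilic stress, 12 were higher in the combined pool, 12 lay within 2-fold and none was lower, with a median difference of 0.82. Cbr3, a carbonyl reductase, had levels of 4.98, 5.44, 8.92 and 9.73 and was 26.9-fold higher. Gstm3, a glutathione transferase, had 9.40, 10.73, 11.63 and 12.09, and Srxn1, sulfiredoxin, had 7.17, 7.60, 9.10 and 9.60. The 3 other Srxn1 probe sets gave differences of 0.01 to 1.53. Nqo1, the quinone reductase often used as the marker of this response, had 5.71, 5.78, 7.16 and 7.74. Each of the 4 genes stepped up from untreated through cholic acid and DEN to combined. The combined pool was the highest of the 4 in 15 of the 24 members, where 24.9% of all expressed genes had their highest level in that pool.

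Endoplasmic reticulum stress and amino acid response genes had 4 higher and no lower member of 21, with a median of 0.67. Psat1, a serine synthesis enzyme, had levels of 2.76, 3.26, 7.23 and 7.50 and was at least 6.27-fold higher. Trib3, a pseudokinase of this response, had 6.45, 6.24, 8.10 and 8.95. Atf3 had 5.34, 5.57, 6.36 and 7.05, and Ddit3, the factor CHOP, had 6.81, 6.96, 7.49 and 7.92. The chaperone Hspa5 (BiP) was within 2-fold at 12.52, 12.79, 13.20 and 13.24.

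Immediate early genes, which signals switch on within minutes, had 11 higher and no lower member of 18, with a median of 1.56. Egr1, a zinc finger factor, had levels of 7.56, 9.23, 11.01 and 11.76 and was 18.4-fold higher. Jun, a subunit of AP-1, had 6.0, 7.70, 8.0 and 8.83, and Ier3 had 4.20, 4.94, 7.05 and 7.41. The combined pool was highest in each of these genes. Fos, the partner of Jun, was highest with cholic acid alone, at 5.19, 9.02, 7.34 and 8.44. In all, 11 of the 18 members had their highest level in the combined pool, against 24.9% of all expressed genes.

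Cytokine, chemokine and feedback genes had 18 higher and 1 lower member of 26, with a median difference of 1.62, or 1.16 with the mean over probe sets. Cd14, the lipopolysaccharide co-receptor, had levels of 5.29, 5.63, 8.33 and 9.42 and was 17.5-fold higher. Ltb, lymphotoxin beta, had 4.95, 4.99, 6.92 and 8.54 and was 12.0-fold higher, and the chemokine Cxcl9 had 6.62, 7.59, 9.60 and 9.85. Tnfrsf12a, the TWEAK receptor, had 6.65, 7.81, 9.70 and 9.46. The first 3 were highest in the combined pool. The lower gene was Il6ra, the interleukin 6 receptor, at 8.22, 8.12, 7.52 and 6.83. Il1b was within 2-fold at 5.47, 5.39, 5.63 and 6.35, and Tnf and Il6 were under the background limit in every pool.

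Interferon response genes mostly had their highest level in the combined pool. Of 29 expressed members 15 were higher and none lower, with a median difference of 1.07. In the combined pool 25 of the 29 were highest, against 24.9% of all expressed genes. Oas1a, an antiviral oligoadenylate synthetase, had levels of 6.77, 7.43, 8.43 and 9.09, and Usp18, the negative regulator of the pathway, had 6.62, 7.66, 7.83 and 8.65. Ifi27l2a had 6.18, 7.37, 7.11 and 8.16, and Gbp6, a guanylate-binding protein, had 6.48, 7.45, 7.74 and 8.40. For these 4 genes the combined pool was 0.66 to 0.81 above the next highest pool, which is less than 2-fold. The cholic acid pool against the untreated pool gave a list median of 0.375, the DEN pool against the untreated pool 0.72, and both share the untreated array with the combined difference.

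**Figure D3:**
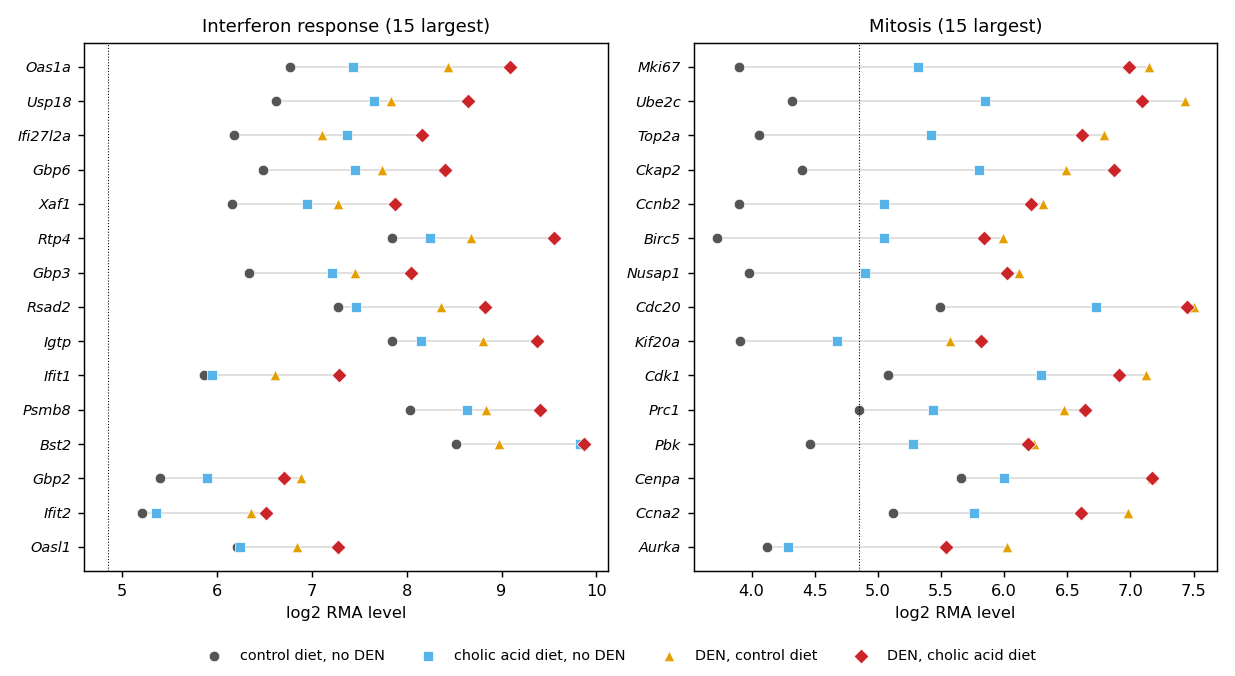
Log2 levels (horizontal axis) in the 4 pools of the 15 interferon response genes and the 15 mitosis genes with the largest differences between the combined and the untreated pool, 1 array per pool. The dotted line is the background limit. The combined pool lies to the right of the DEN pool for Oas1a, at 9.09 against 8.43, and slightly to its left for Mki67, at 6.99 against 7.15.

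Of 17 expressed macrophage markers 8 were higher, 9 lay within 2-fold and none was lower. Their median was 0.98, or 0.72 with the mean over probe sets. In the combined pool 15 of 17 were highest, against 24.9% of all expressed genes. Mpeg1, perforin-2, had levels of 9.27, 9.73, 11.16 and 11.31, and the lysosomal marker Cd68 had 5.46, 6.15, 6.80 and 7.22. Lyz2, a lysozyme of myeloid cells, had 8.80, 9.53, 9.95 and 10.32, and Clec4f, a Kupffer cell lectin, had 8.0, 8.42, 8.0 and 8.53. The summed linear signal of the 19 measured markers was 4857, 7665, 9759 and 12788, and Itgam and Cx3cr1 were under the limit in all pools. Of 7 expressed dendritic cell and MHC class II genes 4 were higher: H2-Aa, H2-Ab1, H2-Eb1 and Cd74, which belong to the MHC class II part of the list. The other 3 lay within 2-fold, and the list median of 1.34 was 0.09 over all 9 measured members. H2-Aa had 8.36, 8.88, 10.40 and 10.40. The summed signal over 9 was 830, 1063, 2581 and 2510, and Xcr1 was under the limit throughout. The part of these cells in the cytokine and interferon values was not tested.

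Of 3 expressed neutrophil markers 2 were higher, with a median of 2.40, but over all 10 measured members the median was 0.03. S100a8 and S100a9, alarmins of neutrophils, had levels of 3.71, 4.82, 6.19 and 6.57 and of 4.59, 5.22, 6.37 and 6.99. Both were under the limit in the untreated pool and counted as expressed through their levels in other pools. The third expressed marker, Csf3r, was level at 6.61, 6.56, 6.68 and 6.66, whereas Mpo, Cxcr2, Ltf, Camp and Mmp8 were under the limit in every pool and the summed signal of 10 was 299, 323, 404 and 474. Among T and NK cell genes the 4 that were expressed lay within 2-fold, 6 of 13 measured ones were under the limit throughout, and their summed signal was 323, 325, 386 and 402. Of 5 expressed B and plasma cell genes 2 were higher: Jchain at 5.26, 5.87, 7.67 and 6.77 and Ighm at 8.99, 9.14, 10.38 and 10.03. The 10 other Ighm probe sets gave differences of -0.72 to 0.82, none past 2-fold, and the list median of 0.19 was -0.01 with the mean over probe sets. Cd79a, Blk and Ms4a1 were under the limit in all pools, and the summed signal of 9 was 769, 838, 1766 and 1384.

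Acute phase proteins of hepatocytes past 2-fold went both ways. Of 23 expressed members 4 were higher and 4 lower, with a median of 0.24. The combined pool was the highest of the 4 in 12 members, against 24.9% of all expressed genes. It was the lowest in 2 members, against 28.4%. Besides Lcn2, already given, the largest differences were decreases: serum amyloid Saa2 had levels of 11.54, 10.52, 8.50 and 9.24, Saa1 had 12.74, 12.32, 10.04 and 10.97, and the orosomucoid Orm2 had 10.67, 8.82, 8.06 and 8.54. Each of these was higher in the combined than in the DEN pool.

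Of 24 expressed matrix and matrix remodelling genes 9 were higher, 15 lay within 2-fold and none was lower, with a median difference of 0.63. Mmp12, the macrophage metalloelastase, had levels of 3.96, 5.14, 5.90 and 7.01 and was at least 4.48-fold higher. Col5a2 had 5.16, 5.40, 8.02 and 7.42, Col4a1, of basement membranes, had 6.91, 6.95, 8.80 and 8.76, and the fibrillar collagen Col3a1 had 8.12, 8.70, 10.05 and 9.92. Except for Mmp12 these were not higher in the combined than in the DEN pool. Col1a1 had 4.55, 4.97, 5.59 and 5.48, within 2-fold.

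Stellate cell and fibroblast markers had 2 higher and no lower member of 15, with a median of 0.52, and a summed signal of 2920, 3227, 4242 and 3704; none was under the limit throughout. The higher genes were Acta2, smooth muscle actin, at 6.27, 5.74, 8.21 and 7.89, whose other probe sets gave differences of 0.09 and 0.10, and the collagen Col1a2. Endothelial markers had 1 higher member of 14, Lyve1 at 6.56, 6.76, 7.89 and 7.80, with a median of 0.45, a summed signal of 3054, 3137, 3590 and 4160 over 17, and Tie1 under the limit throughout. Of all expressed genes 5.98% were higher, a share near 1 of 14. The part of these cells in the matrix values was not tested.

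**Figure D4:**
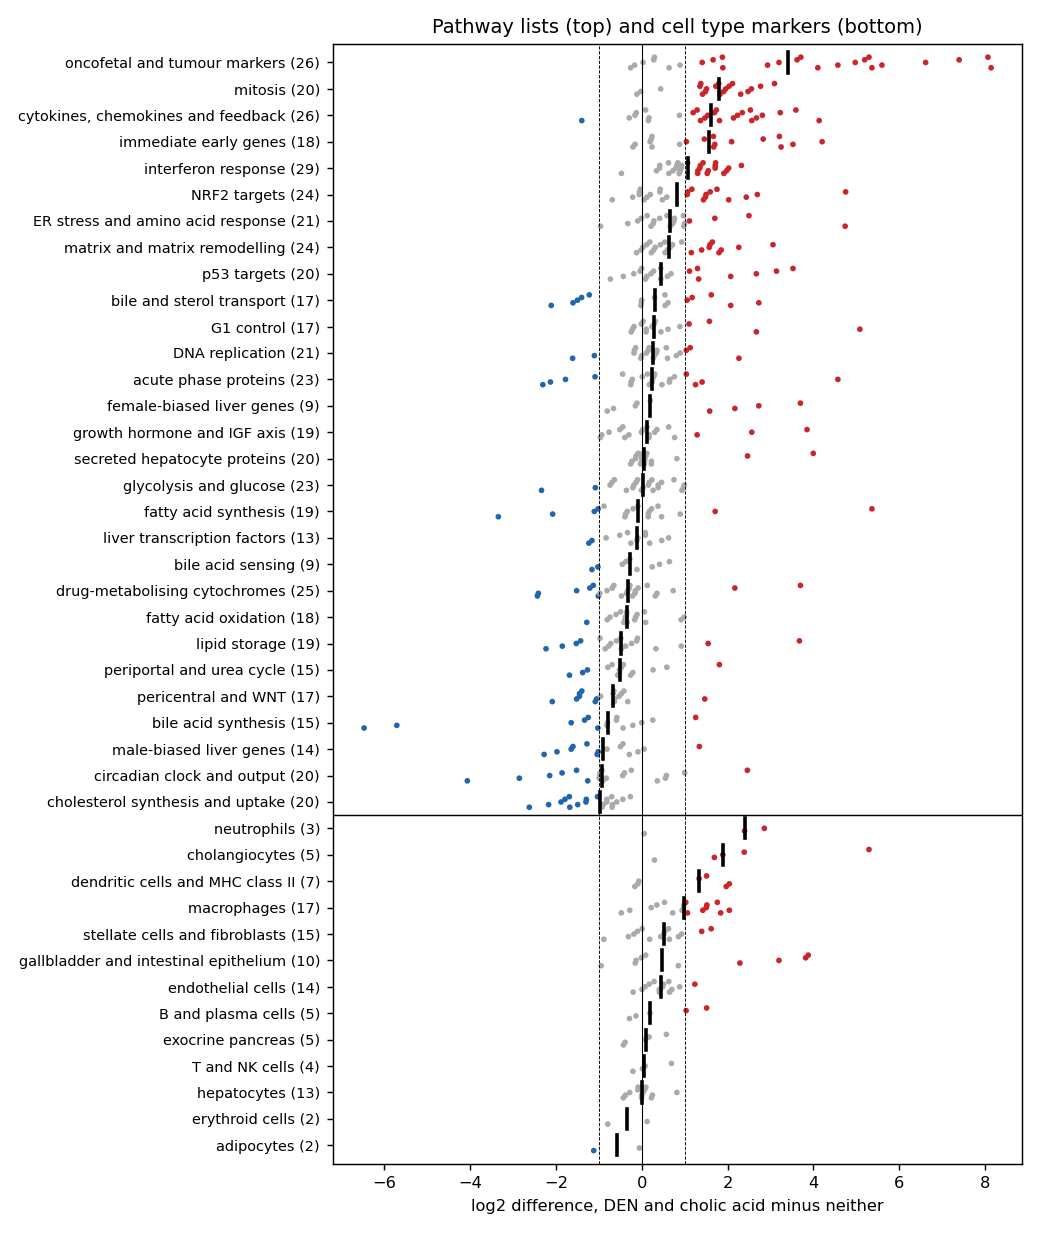
Log2 difference between the combined and the untreated pool (horizontal axis) for each expressed member of the 29 pathway lists and 13 cell type marker lists, with the number of expressed members in brackets. Each point is a gene, black bars are list medians, dashed lines mark 2-fold, red points are higher and blue points lower. Oncofetal genes have a median of 3.41 and cholesterol genes one of -0.98, and hepatocyte markers sit at 0.00.

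Some genes of hepatocyte zonation were lower, both pericentral and periportal. Of 17 expressed pericentral and WNT-dependent genes 7 were lower and 1 higher, with a median of -0.66. In 13 of the 17 the combined pool had the lowest level, against 28.4% of all expressed genes. Oat, ornithine aminotransferase, had levels of 12.44, 11.63, 11.73 and 10.36, Cyp1a2 had 12.29, 12.29, 11.11 and 10.78, and Slc1a2, a glutamate transporter, had 9.20, 9.18, 8.06 and 7.75. Glutamine synthetase (Glul), the classical pericentral marker, was within 2-fold at 12.26, 11.98, 11.56 and 11.63. The member that was higher was the neutral amino acid carrier Slc1a4, at 5.85, 5.61, 6.84 and 7.32.

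Of 15 periportal and urea cycle genes 3 were lower and 1 higher, with a median of -0.52. In 10 of the 15 the combined pool had the lowest level, against 28.4% of all expressed genes. Tat, tyrosine aminotransferase, had levels of 12.26, 12.22, 11.81 and 10.57. The urea cycle enzymes Asl and Ass1 had 11.25, 11.05, 10.78 and 9.87, and 8.06, 7.60, 7.18 and 6.80. All 3 were lowest in the combined pool. E-cadherin (Cdh1), an adhesion protein of periportal hepatocytes and ducts, was higher at 8.99, 9.38, 10.72 and 10.80.

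Drug-metabolising cytochromes had 2 higher and 6 lower members of 25, with a median of -0.325, where 5.98% of all expressed genes were higher and 2.19% lower. Cyp2c54 had levels of 12.59, 12.27, 11.24 and 10.16 and was 5.39-fold lower. Cyp2b10, a target of CAR, was higher with cholic acid alone and lower with both treatments, at 7.99, 9.30, 5.99 and 5.59. Its relatives Cyp2b9 and Cyp2b13, which female mice express more, went the other way, with 4.87, 7.20, 8.85 and 8.56 and with 4.66, 6.48, 6.53 and 6.83. Cyp3a11, an abundant cytochrome induced by bile acids through PXR, was level at 14.28, 14.35, 14.12 and 14.20.

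Genes that differ between male and female liver, under control of the growth hormone pulse pattern, shifted unevenly. Of 14 expressed male-biased genes 7 were lower and 1 higher, with a median of -0.91, and of 9 female-biased genes 4 were higher and none lower, with a median of 0.20. Moxd1 had levels of 8.95, 4.21, 8.49 and 6.68, under the background limit with cholic acid alone. Susd4 had 8.55, 7.54, 7.20 and 6.57, and Cyp17a1, a steroid hydroxylase of the female-biased list, had 6.07, 4.97, 8.51 and 7.65. Mup10, a major urinary protein, had 10.69, 10.00, 8.79 and 7.79 and was 7.44-fold lower. In the growth hormone and IGF list 3 of 19 were higher, against 5.98% of all expressed genes, and none lower, with a median of 0.125: Igfbp1, Socs2 and Cish. Socs2, the feedback inhibitor of growth hormone signalling, had 7.34, 8.50, 8.54 and 9.90, and Cish had 7.11, 8.13, 7.20 and 8.41. The 5 other Socs2 probe sets gave differences between -0.16 and 2.71.

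Clock genes and their outputs had 1 higher and 6 lower members of 20, with a median of -0.91. Arntl (BMAL1), the activator of the loop, was higher at 5.34, 4.18, 7.78 and 7.80, though its second probe set gave a difference of -0.04. Its output Dbp, a PAR bZIP factor, was lower at 11.02, 11.20, 8.34 and 8.17, and Usp2 had 8.49, 9.23, 6.08 and 6.34. Upp2, a rhythmic uridine phosphorylase, had 11.91, 11.91, 9.66 and 7.85 and was 16.7-fold lower, with its lowest level in the combined pool. The hour at which the livers were taken is not given in the labels used here. The E-box CACGTG, searched on both strands, was in 5 of 19 clock gene promoters in the table (26.3%), against 8.09% of all genes.

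Secreted hepatocyte proteins and liver transcription factors were mostly level. For comparison, 5.98% of all expressed genes were higher and 2.19% lower. Of 20 secreted proteins 2 were higher and none lower, with a median of 0.04: Apoa4, an apolipoprotein of triglyceride transport, at 9.69, 10.30, 13.41 and 13.69, and Apoc2, the cofactor of lipoprotein lipase, at 11.46, 12.00, 13.90 and 13.93. Of 13 transcription factors 2 were lower and none higher, with a median of -0.11: Cebpb at 11.37, 11.36, 10.56 and 10.14, and Nr1h4. Hnf4a, the central hepatocyte factor, had 11.97, 12.36, 11.85 and 11.88. Of 23 glucose metabolism genes 2 were lower and none higher, with a median near 0 whose sign depends on the scaling. The lower ones were Ppp1r3g, a glycogen-targeting subunit, at 6.49, 5.37, 6.23 and 4.16, and the glucose transporter Slc2a2 at 12.30, 12.42, 11.32 and 11.22.

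Few genes had a level in the combined pool that lay 2-fold outside all 3 other pools. There were 20 such genes above (0.171% of the expressed genes) and 21 below (0.18%). The same count for the other arrays was 10 above and 51 below for the untreated pool, 7 and 30 for the cholic acid pool, and 8 and 0 for the DEN pool. With low levels raised to the limit, 20 and 15 genes were left for the combined pool. The combined pool thus had the most genes above the others, but fewer below them than the untreated and the cholic acid pools had.

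The genes farthest above were Rad51b, Tmem45b, Cxcl3, Csn3, Vil1, Ltb, Anxa13 and Wfdc12. Rad51b, a recombination repair gene, had levels of 3.26, 4.14, 6.84 and 8.95, though its second probe set gave a difference of -0.10. Csn3, kappa-casein, had 4.09, 3.74, 8.27 and 10.27, and its second probe set gave 0.46. Cxcl3, a neutrophil-attracting chemokine, had 2.0, 2.18, 4.79 and 6.85, so it was above the limit in the combined pool alone. Tmem45b was above it in both DEN pools, at 3.57, 3.37, 5.05 and 7.12; these last 2 genes had means under the limit and are not among the 20. Vil1, villin of microvilli, had 4.41, 4.34, 5.92 and 7.61, Anxa13, an epithelial annexin, had 4.13, 4.70, 4.90 and 6.42, and Wfdc12 had 5.86, 5.34, 6.94 and 8.37. In each of the 8 genes the DEN pool was the second highest.

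Farthest below were Cyp7a1, Upp2, Thrsp, Bcl6, Oat, Tat, Nnmt and Angptl4. Bcl6, a transcriptional repressor that favours male-biased genes in liver, had levels of 8.96, 8.15, 8.54 and 6.77, and its second probe set gave a difference of -0.73. Nnmt, nicotinamide N-methyltransferase, had 10.83, 9.99, 10.61 and 8.76. Angptl4, a secreted inhibitor of lipoprotein lipase, had 10.42, 10.50, 9.64 and 8.44, and its second probe set gave -0.78. In Bcl6, Oat, Tat, Nnmt and Angptl4 the other 3 pools lay within 2-fold of each other, and the combined pool was 1.20 to 1.38 below the lowest of them. Mfsd2a, a lysolipid carrier, and Dct were also at least 2-fold below every other pool, at 8.80, 9.74, 7.44 and 6.28 and at 8.68, 7.16, 7.64 and 6.16.

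**Figure D5:**
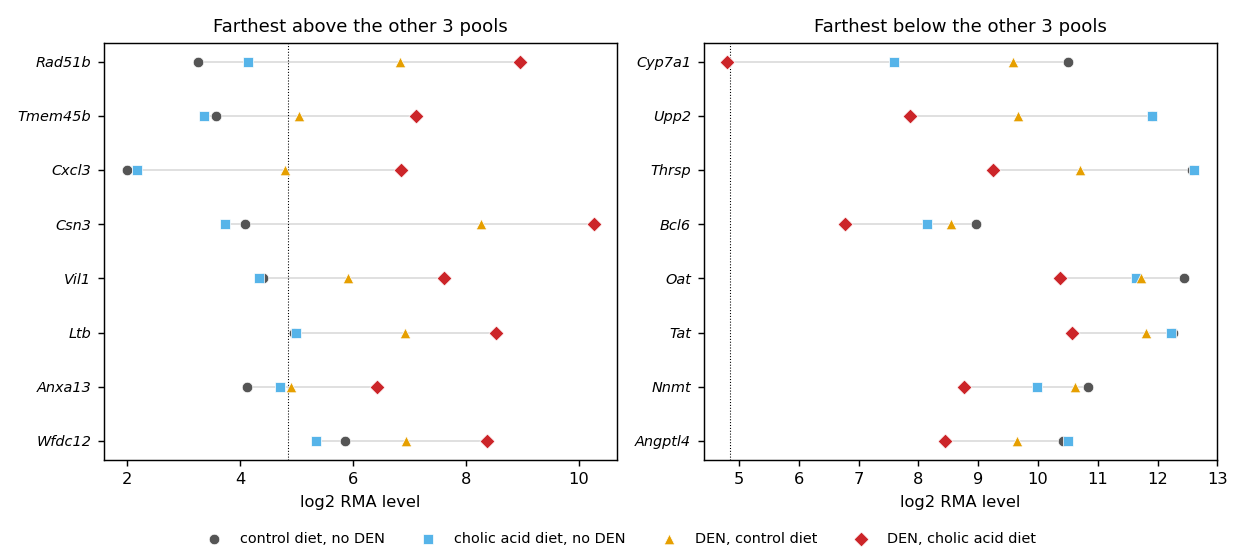
Log2 levels (horizontal axis) in the 4 pools of the 8 genes whose combined pool lay farthest above, and the 8 whose combined pool lay farthest below, all other pools, 1 array per pool, with low levels raised to the background limit (dotted line) for the ranking only. The combined pool is at 8.95 for Rad51b and 4.80 for Cyp7a1, against 6.84 and 7.59 in the nearest other pool.

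Probe sets give a further view of how firm single genes are. Of the 697 higher genes 247 had another expressed probe set, and in 118 of these (47.8%) all such probe sets were also at least 2-fold higher, while 34 had one of opposite sign. Of the 256 lower genes 116 had another, with 63 (54.3%) past 2-fold in all and 6 with one of opposite sign. Among the 20 largest increases, Cpe and Rad51b had a second probe set with a difference below 0. All other probe sets of the 20 largest decreases had a difference below 0. With the mean over probe sets the differences of Fdps (-0.88), Fabp4 (0.97), Top2a (0.72), Ddit3 (0.98), Slc1a2 (-0.56), Acta2 (0.60), Lyve1 (0.97) and Ighm (0.08) no longer reached 2-fold, like those of Mcm5 and Mcm10.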

How the data were processed

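Total RNA of pooled livers, 1 pool per group, was labelled with biotin and hybridized to Affymetrix arrays. The values, used as the authors deposited them, are on the log2 scale; the submitters' processing notes name Partek 6.5 and RMA. Of 45101 probe sets 34958 carry 1 symbol in the platform annotation, 932 several and 9211 none, and only the first were named; 64 control probe sets were left out. A gene with several probe sets was represented by the one with the highest mean over the 4 arrays, expressed genes had a mean of at least 4.851, and 2-fold was the threshold. No test was run because each group has 1 array, whose number limits the precision. The scripts were checked on simulated data with known differences. The comparison and its gene lists were chosen with earlier results of these data known. Genes named are the 20 largest differences each way and the 8 farthest outside the other pools each way. Up to 4 members of each list and its defining member, and a set of well-known liver genes, are named too. Others (such as Hspa5, Pcna, Il6ra and the list members named together) were picked after their values were seen. Alternatives were other scalings (quantile normalization, centring, loess with fraction 0.3), filters, folds (1.5), and ways to combine probe sets. Promoters came from RefSeq, build GRCm38.p6. Python 3.11.15, numpy 2.4.6, pandas 2.3.3, statsmodels 0.14.6 and matplotlib 3.10.9 were used.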

Additional observations from a re-analysis of the deposited data

How the results depend on the processing

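The counts of 697 higher and 256 lower genes, and of 20 above and 21 below every other pool, moved by less than 1.5 times under quantile normalization, centring on the median, loess centring, the mean over probe sets, and low levels raised to the limit. With no filter on low values 34 genes lay above every other pool. With only genes whose mean was at or above the upper quartile of 6.643, 351 were higher (5.07% of the genes left) and 5 lay above every other pool (0.0722%, against 0.171%); the cause was not tested. At 1.5-fold, 1408 were higher, 797 lower, 98 above and 83 below every other pool. Counting each named probe set alone gave 427 lower and 36 below every other pool. Centring moved the counts to 595 higher and 346 lower. The cholesterol median of -0.98 was the lowest of the 29 pathway lists as reported, but with the mean over probe sets it was -0.89 against -0.91 for male-biased genes, and list means were -1.19 for cholesterol and -1.29 for bile acid synthesis. The oncofetal median of 3.41 was 2.32 with the mean over probe sets, and the medians for neutrophils (2.40), dendritic cells (1.34), and gallbladder and intestinal epithelium (0.47) were 0.03, 0.09 and 0.04 over all measured members. Signs changed with scaling for values near 0: Abcb11, Hnf4a, Alb, Cyp3a11, Cd8a, Cd4, Csf3r, and the medians of secreted proteins, glucose metabolism, hepatocytes, T and NK cells, and exocrine pancreas. No paired analysis was possible because each group has 1 array. Differences near the background limit are compressed, and no error can be attached to any value.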

Other observations

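Several enzymes of amino acid breakdown outside the lists, picked after their values were seen, were lower in the combined than in the untreated pool, each with its lowest level in the combined pool. Prodh, proline dehydrogenase, had levels of 10.24, 10.16, 8.87 and 8.13 in the order untreated, cholic acid, DEN and combined. Got1, the cytosolic aspartate aminotransferase, had 10.71, 9.77, 10.43 and 9.29. Dmgdh, dimethylglycine dehydrogenase, had 11.66, 11.00, 10.67 and 10.10, and Dhtkd1, of lysine breakdown, had 9.13, 8.99, 8.12 and 7.78. Dio1, the deiodinase that activates thyroid hormone, had 10.50, 9.71, 8.77 and 8.39, and Ppargc1a, the coactivator of fasting metabolism, had 7.81, 7.10, 6.68 and 6.14.

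Some further genes outside the lists that were higher were also picked after their values were seen, so they stand for no group. Lepr, the leptin receptor, had levels of 4.16, 4.34, 7.68 and 8.22, with other probe sets giving differences of 0.05 to 3.66. Itga6, a laminin-binding integrin, had 4.64, 4.54, 7.74 and 8.23. Tlr1 had 3.60, 4.13, 8.10 and 8.19, and Klrb1b, a lectin-like receptor of NK cells, had 2.69, 2.65, 8.61 and 8.74. Cybb, the NADPH oxidase subunit of phagocytes, had 6.72, 7.34, 7.94 and 9.22, and Ubd, a ubiquitin-like modifier induced by inflammation, had 4.26, 4.66, 7.25 and 8.35; both lay at least 2-fold above every other pool.

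Of 5 expressed exocrine pancreas genes and 2 erythroid genes none was 2-fold apart, and of 2 expressed adipocyte genes Car3, which hepatocytes also express, was lower at 14.25, 14.09, 13.78 and 13.14. Its 3 other probe sets gave larger differences, -4.97 to -2.48, and the mean over probe sets gave -3.37, with a list median of -1.71 in place of -0.585. Of 2464 expressed probe sets with no gene name, 94 (3.81%) passed 2-fold upwards and 71 (2.88%) downwards.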
